A study of Mus musculus with 6 samples.

Results

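Ugt8a, Fa2h, Gal3st1, Cers2, Elovl1, Elovl7, Aspa, Sptlc2 and Degs1 encode enzymes that build the galactolipids and sphingolipids of myelin. These 9 genes were listed by that function, with no threshold on a measured value but with earlier results of these data known, and were 9 of the 54532 gene identifiers in the table. All 9 reached the minimum level for testing, a mean of 0.5 FPKM over the libraries. Sequencing of brain RNA at postnatal day 15 compared 3 libraries of Angptl2-/- mice with 3 libraries of Angptl2+/+ mice, and neither genotype received an agent. The Angptl2-/- animals, in the C57BL/6 background, carried a deletion of exon 2 of Angptl2. Males with that exon flanked by loxP sites and Stra8-cre, a recombinase active in male germ cells, were crossed with wild-type females, so the deletion passed through the germline and was not limited to a brain cell type. How homozygotes were then obtained is not stated. Neither the dissection of the brains nor the number of animals per library is stated. The tests thus measure the spread between these libraries, which may be technical in part. By the sex markers Xist and Ddx3y, each genotype held libraries of both sexes, so its libraries did not all come from the same animal. The question was whether lack of ANGPTL2, a secreted protein studied here for its part in oligodendrocyte differentiation, was accompanied by a different level of these enzymes' transcripts.

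Myelin is a lipid-rich membrane wound around axons, and galactosylceramide and its sulfated form, sulfatide, are its typical lipids. Synthesis starts with the condensation of serine and palmitoyl-CoA, passes through dihydroceramide to ceramide, and ends with the transfer of galactose and then sulfate. Myelin ceramides carry very long and often hydroxylated acyl chains, so elongases, a ceramide synthase for such chains and a hydroxylase belong to the same pathway. In the brain, oligodendrocytes express Ugt8a, Fa2h, Gal3st1 and Aspa far above other cell types, whereas the enzymes of ceramide synthesis are used by all cells.

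Sequences are given first for the parts of these genes that the study's designed primers address. Promoters follow for the genes with the highest and the lowest GC content there, and for Gal3st1. Fa2h and Gal3st1 belonged to the genes that the study picked from these libraries and measured by quantitative PCR, and their primers show which transcripts that assay could detect. Both Fa2h primers lay in the coding sequence of Fa2h-201, a transcript with 7 exons on the minus strand of chromosome 8 (GENCODE M21, GRCm38). The forward primer matched exon 3 (chr8:111356159-111356179), the reverse primer spanned the junction of exons 3 and 4 (chr8:111355493-111356084), and the product was 116 bases long.
Fa2h forward primer: CCACTTGGGGGAGAAGTATGA
Fa2h reverse primer: TGGGGACACTATACCAGACAG
Both Gal3st1 primers matched exon 2 of Gal3st1-201 on the plus strand (chr11:3984968-3984987 and chr11:3985106-3985125), outside the coding sequence, with a product of 158 bases. Neither primer matched Gal3st1-202 or Gal3st1-203. Among the transcripts with a coding sequence, the only ones searched, that assay thus covered Gal3st1-201 only, whereas the FPKM value of the gene sums all its transcripts.
Gal3st1 forward primer: CAAACAAGCACTTGCAGGAA
Gal3st1 reverse primer: TGGGGTACTTCTGCTCCATC

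RefSeq promoters (GRCm38.p6) were found for 8 of the 9 genes, with 12 start sites, and Fa2h was not among them. The 250 bases before the start differed in base composition, from 38.8% GC at Aspa to 76.8% GC at Ugt8a, against a median of 52.4% over 32841 promoter windows of the same length. Windows were searched on both strands for ACAAT, the core letters bound by SOX proteins such as the oligodendrocyte factor SOX10, and for CTGGNAC, the letters bound by MYRF, the factor of myelin gene transcription. The first was present in 3 of the 12 windows (27.7% of all windows), of which 2 are overlapping Gal3st1 windows that hold the same match, and the second in none (16.1% of all windows). Promoters of Ugt8a, Gal3st1 (its first start site) and Aspa are printed in lower case, 5′ to 3′ on the strand of the gene, with ACAAT or its complement in capitals.
Ugt8a, chr3:125938653-125938902, minus strand: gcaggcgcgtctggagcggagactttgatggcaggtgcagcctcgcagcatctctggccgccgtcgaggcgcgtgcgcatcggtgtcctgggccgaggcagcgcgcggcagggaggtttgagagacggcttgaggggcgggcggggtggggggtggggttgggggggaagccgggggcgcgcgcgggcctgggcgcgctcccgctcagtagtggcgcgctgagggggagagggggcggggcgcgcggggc
Gal3st1, chr11:3983386-3983635, plus strand: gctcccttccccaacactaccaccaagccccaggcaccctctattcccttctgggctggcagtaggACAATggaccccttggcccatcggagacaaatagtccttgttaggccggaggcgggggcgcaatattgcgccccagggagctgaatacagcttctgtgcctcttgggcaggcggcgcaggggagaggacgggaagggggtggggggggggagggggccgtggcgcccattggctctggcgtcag
Aspa, chr11:73324638-73324887, minus strand: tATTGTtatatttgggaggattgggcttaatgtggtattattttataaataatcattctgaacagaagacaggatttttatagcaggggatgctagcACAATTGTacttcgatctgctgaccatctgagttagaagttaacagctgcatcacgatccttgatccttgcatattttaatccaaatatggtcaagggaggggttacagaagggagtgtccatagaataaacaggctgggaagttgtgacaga
The Aspa window held 3 matches, of which 2 overlap in the run of capitals that reads ACAATTGT, and the Gal3st1 window held 1, at 184 bases before the start. The Ugt8a window held none and had 32 CpG dinucleotides, against 11 in the Gal3st1 window and 2 in the Aspa window. A match describes these letters only.

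The libraries held 17127276 to 18928921 fragments assigned to genes, by the steps in the FPKM values. Angptl2 itself was read at 0.166, 0.320 and 0.126 FPKM in Angptl2-/- replicates 1, 2 and 3, against 0.660, 0.958 and 0.290 FPKM in Angptl2+/+ replicates 1, 2 and 3, from 13 to 107 fragments (exact permutation test, two-sided p = 0.2). Angptl2-/- replicate 2 thus lay above Angptl2+/+ replicate 3, and the gene overlaps Ralgps1 on the other strand. The value covers all exons of the gene, whereas the allele lacks exon 2, so it need not fall to 0. The paper reports that PCR showed the deletion. It also reports no detectable ANGPTL2 protein by Western blot in tissues of Angptl2-/- mice, brain included. Before the enzymes are described, 3 features of the libraries need to be known. Angptl2+/+ replicate 1 stood apart: its summed level of 14 mature oligodendrocyte markers was 2093 FPKM, against 1026 and 1028 FPKM in the other Angptl2+/+ libraries, and its summed level of 9 cerebellum markers was 184 FPKM, against 65.4 and 79.6 FPKM. Summed choroid plexus markers were 105 to 943 FPKM in Angptl2-/- and 1.82 to 8.22 FPKM in Angptl2+/+ libraries, and summed striatum markers were 93.0 to 196 FPKM in Angptl2-/- and 44.1 to 106 FPKM in Angptl2+/+ libraries. GC-poor genes (under 44.8% GC) had a median log2 deviation from their mean of −0.02 to 0.26 in Angptl2-/- and of −0.20 to −0.04 in Angptl2+/+ libraries. For GC-rich genes (over 54.5% GC) it was −0.26 to 0.0013 in Angptl2-/- and 0.08 to 0.22 in Angptl2+/+ libraries. Xist was high in 1 Angptl2-/- library and in 2 Angptl2+/+ libraries, and no test adjusts for sex. The part of these features in the results was tested only where a value without that library or after a GC correction is given.

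None of the 9 enzymes passed the test between genotypes. Their log2 fold changes (limma on log2(FPKM + 0.1), Angptl2-/- minus Angptl2+/+) ran from −0.55 for Fa2h to 0.14 for Degs1, with standard errors of 0.12 to 0.37 and adjusted p-values of 0.394 to 0.901 over the 14862 genes tested (Benjamini-Hochberg). Over all genes, 0.0% passed the same threshold of 0.05. At an unadjusted p under 0.05 in limma, 0 of the 9 were lower, beside 9.12% of all genes, and 0 were higher, beside 7.09%. With voom on the recovered fragments these counts were also 0. For no enzyme did the 3 Angptl2-/- values lie wholly below the 3 Angptl2+/+ values, which was the case for 11.8% of all genes, and for none wholly above, beside 10.7%. By sign, 6 of the 9 were lower and 3 higher in Angptl2-/- libraries, with a median of −0.18, while 50.6% of all genes were lower, with a median of −0.00428. In RNA of mixed tissue, fewer oligodendrocytes and less RNA per oligodendrocyte cannot be told apart.

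The libraries did not share this evenly. Angptl2+/+ replicate 1 was the highest of the 6 libraries for 7 of the 9 enzymes, whereas it was the highest for 17.5% of all genes tested. Angptl2-/- replicate 1 was the lowest for 5 of the 9, and for 9.90% of all genes. Without Angptl2+/+ replicate 1 the number of enzymes with a lower mean in Angptl2-/- libraries was 3 instead of 6, and the median log2 fold change was 0.07. After a correction of each library for GC content the number was 8, with a median of −0.15. No adjusted p of any of the 9 was under 0.207 in any of the 19 alternative fits.

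**Figure D1:**
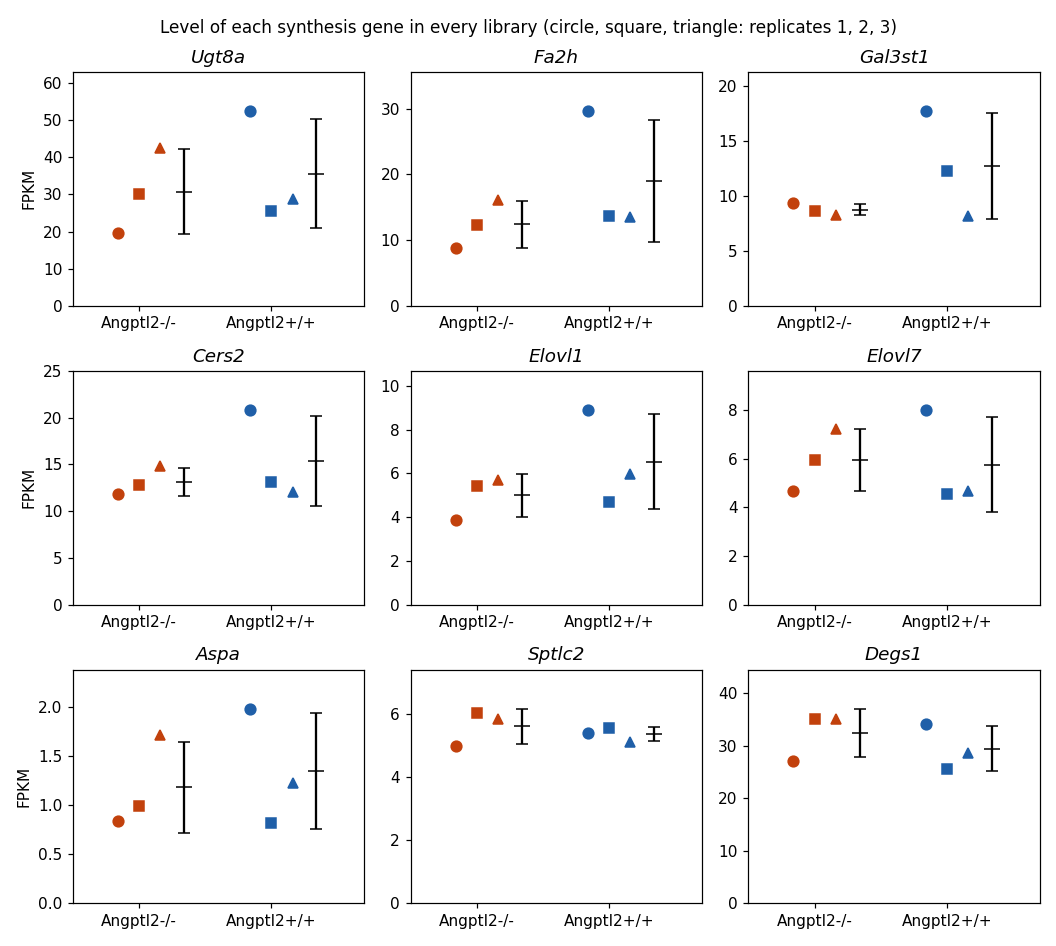
Level in FPKM (vertical axes, from 0) of each enzyme gene in the 3 Angptl2-/- libraries (orange, left) and the 3 Angptl2+/+ libraries (blue, right), with the mean and SD beside them as a bar. In 7 of the 9 panels the highest point is Angptl2+/+ replicate 1, the blue circle, and the genotypes overlap in every panel.

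By level per gene length, Ugt8a (mean of 33.2 FPKM over the 6 libraries) and Degs1 (31.0 FPKM) came first, with overlapping ranges. Fa2h (15.7 FPKM), Cers2 (14.3 FPKM) and Gal3st1 (10.7 FPKM) followed, and their ranges overlapped as well. Elovl7 (5.86 FPKM), Elovl1 (5.76 FPKM) and Sptlc2 (5.49 FPKM) were alike within their spread. Aspa, at 1.26 FPKM, was below every other enzyme in every library. The fragments behind a value ran from 87 for Aspa to 4251 for Ugt8a.

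The galactolipid branch turns ceramide into galactosylceramide and sulfatide. Ugt8a (ENSMUSG00000032854, chr3:125865271-125938619, minus strand) encodes the transferase that adds galactose to ceramide. It had 19.7, 30.0 and 42.6 FPKM in Angptl2-/- replicates 1, 2 and 3, against 52.5, 25.5 and 28.7 FPKM in Angptl2+/+ replicates 1, 2 and 3. The lowest value was thus an Angptl2-/- and the highest an Angptl2+/+ library, but 2 of the 3 Angptl2-/- values exceeded 2 of the 3 Angptl2+/+ values. Means were 30.8 ± 11.4 FPKM in Angptl2-/- and 35.6 ± 14.8 FPKM in Angptl2+/+ libraries (SD, n = 3 each), and the log2 fold change was −0.20 (SE 0.35, limma adjusted p = 0.787). Its 95% interval, from 0.494-fold to 1.53-fold, leaves the direction undetermined. Leaving out Angptl2+/+ replicate 1 gave 0.12, leaving out Angptl2-/- replicate 1 gave 0.08, and the GC correction gave −0.52.

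Fa2h (ENSMUSG00000033579, chr8:111345135-111393824, minus strand) encodes fatty acid 2-hydroxylase, which supplies the hydroxylated acyl chains of myelin galactolipids. Its level was 8.79, 12.3 and 16.1 FPKM in the 3 Angptl2-/- libraries, against 29.7, 13.7 and 13.5 FPKM in the 3 Angptl2+/+ libraries. Angptl2+/+ replicate 1 was 2.18 times the mean of the other Angptl2+/+ libraries, which differed little from each other and lay within the Angptl2-/- range. Fa2h had the most negative log2 fold change of the 9, −0.55 (SE 0.34, limma adjusted p = 0.435), with a 95% interval from 0.390-fold to 1.19-fold. The value was −0.18 without that library and −0.37 after the GC correction, and it was negative in all 19 alternative fits.

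Gal3st1 (ENSMUSG00000049721, chr11:3983636-3999326, plus strand) encodes cerebroside sulfotransferase, which makes sulfatide from galactosylceramide. The Angptl2-/- libraries were close together at 9.33, 8.62 and 8.28 FPKM, against 17.7, 12.2 and 8.14 FPKM in the Angptl2+/+ libraries. In Angptl2+/+ replicates 1 and 2 the level was above all Angptl2-/- values, and in replicate 3 it was below all of them. The SD was 0.532 FPKM in Angptl2-/- and 4.80 FPKM in Angptl2+/+ libraries, and the log2 fold change was −0.46 (SE 0.26, limma adjusted p = 0.394, 95% interval from 0.477-fold to 1.10-fold). Leaving out Angptl2+/+ replicate 3 gave −0.75 (limma unadjusted p = 0.00423, adjusted p = 0.207), and leaving out Angptl2+/+ replicate 1 gave −0.19. Gal3st1 had the highest GC content of the 9, 59.5%, and the GC correction gave −0.14. Fa2h and Gal3st1 were picked by the study from these same libraries, so their direction here is not independent evidence. The paper reports Gal3st1 among the genes that quantitative PCR found lower in Angptl2-/- brains, and does not name Fa2h among them. Whether that assay used the same animals is not stated.

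**Figure D2:**
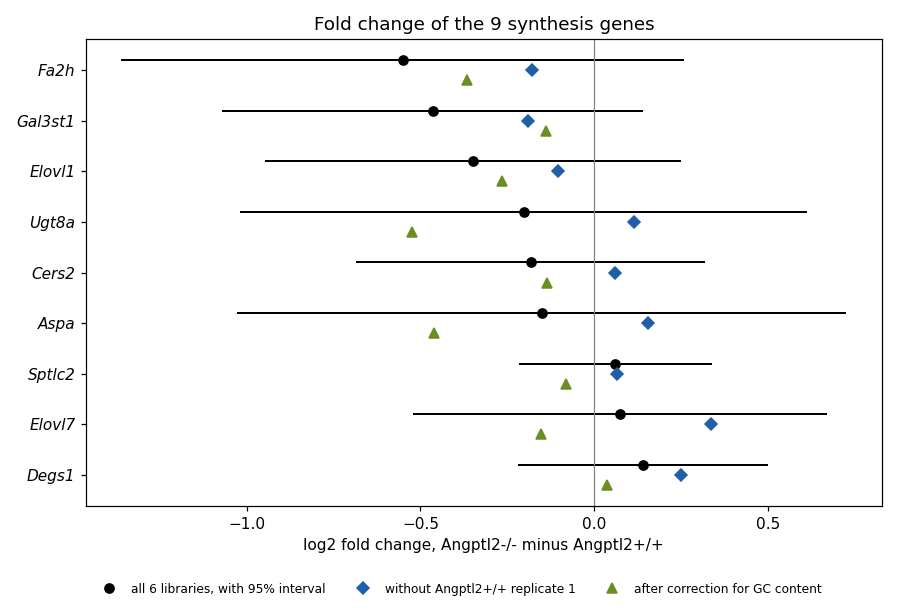
Log2 fold change (horizontal axis, Angptl2-/- minus Angptl2+/+) of the 9 enzymes from all 6 libraries (black, with 95% interval), without Angptl2+/+ replicate 1 (blue) and after the GC correction (green). All 9 intervals include 0, and 3 of the 9 values stay below 0 without Angptl2+/+ replicate 1, against 8 of 9 after the GC correction.

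The acyl chain enzymes set the chain length. Cers2 (ENSMUSG00000015714, chr3:95314791-95323599, plus strand), the ceramide synthase that prefers very long acyl chains, had 11.8, 12.8 and 14.8 FPKM in Angptl2-/- libraries, against 20.9, 13.2 and 12.02 FPKM in Angptl2+/+ libraries. Apart from Angptl2+/+ replicate 1 the libraries of both genotypes covered the same range. Its log2 fold change was −0.18 (SE 0.21, limma adjusted p = 0.674) and 0.06 without that library. The end of Cers2 overlaps, over a short stretch, the end of Setdb1 on the other strand (mean of 6.43 FPKM). The strand setting of the counting is not given, so reads of that stretch could be assigned to either gene.

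Elovl1 (ENSMUSG00000006390, chr4:118428093-118432953, plus strand) encodes the elongase of saturated very long acyl chains. It had 3.86, 5.43 and 5.69 FPKM in Angptl2-/- libraries, against 8.92, 4.69 and 5.99 FPKM in Angptl2+/+ libraries. Angptl2-/- replicate 1 was the lowest and Angptl2+/+ replicate 1 the highest library, and the other 4 were intermixed. The log2 fold change was −0.35 (SE 0.25, limma adjusted p = 0.495), −0.10 without Angptl2+/+ replicate 1 and −0.56 without Angptl2+/+ replicate 2. Its locus overlaps Cdc20 on the other strand (mean of 0.803 FPKM).

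Elovl7 (ENSMUSG00000021696, chr13:108214404-108285683, plus strand), an elongase of long acyl chains that is enriched in oligodendrocytes, did not share the direction of Elovl1. It had 4.69, 5.95 and 7.23 FPKM in Angptl2-/- libraries, against 8.03, 4.57 and 4.68 FPKM in Angptl2+/+ libraries. All 3 Angptl2-/- values lay above Angptl2+/+ replicates 2 and 3 and below replicate 1. The log2 fold change was 0.08 (SE 0.25, limma adjusted p = 0.901), 0.34 without Angptl2+/+ replicate 1 and −0.15 after the GC correction, and its sign was positive in 14 of the 19 alternative fits.

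Enzymes of the ceramide backbone had the steadiest levels. Sptlc2 (ENSMUSG00000021036, chr12:87305058-87388355, minus strand) encodes a subunit of serine palmitoyltransferase, the entry step of sphingolipid synthesis. It had 4.98, 6.04 and 5.84 FPKM in Angptl2-/- libraries, against 5.41, 5.56 and 5.12 FPKM in Angptl2+/+ libraries. The spread was small, Angptl2+/+ replicate 1 was not the highest library, and the log2 fold change of 0.06 had the lowest SE of the 9, 0.12 (limma adjusted p = 0.810). Its 95% interval ran from 0.863-fold to 1.26-fold, the narrowest of the 9.

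Degs1 (ENSMUSG00000038633, chr1:182275772-182282804, minus strand) encodes the desaturase that turns dihydroceramide into ceramide. Its level was 27.2, 35.1 and 35.2 FPKM in Angptl2-/- libraries, against 34.1, 25.7 and 28.6 FPKM in Angptl2+/+ libraries. The top values were those of Angptl2-/- replicates 3 and 2, and each genotype had a library at the other's level. The log2 fold change was 0.14 (SE 0.15, limma adjusted p = 0.651, 95% interval from 0.861-fold to 1.41-fold), and it was positive in all 19 alternative fits.

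Aspa (ENSMUSG00000020774, chr11:73304992-73329596, minus strand) encodes aspartoacylase, which releases acetate from N-acetylaspartate in oligodendrocytes, and its loss in humans causes the leukodystrophy Canavan disease. It had 0.841, 0.995 and 1.71 FPKM in Angptl2-/- libraries, against 1.99, 0.822 and 1.23 FPKM in Angptl2+/+ libraries, from 87 to 211 fragments. All 3 Angptl2-/- values lay within the Angptl2+/+ range. The log2 fold change was −0.15 with the highest SE of the 9, 0.37 (limma adjusted p = 0.862), 0.15 without Angptl2+/+ replicate 1 and −0.46 after the GC correction.

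Around these enzymes, 7 lists of pathway genes were read, and no gene of any list passed the adjusted test. Median log2 fold changes were 0.06 for de novo ceramide synthesis (10 genes tested), 0.07 for the ceramide synthases (5 genes), 0.12 for acyl chain elongation (12 genes), −0.24 for the galactolipid branch (8 genes), 0.18 for the sphingomyelin and glucosylceramide branch (12 genes), −0.16 for sphingolipid breakdown (19 genes) and −0.05 for N-acetylaspartate and acetate (11 genes). After the GC correction the medians of de novo ceramide synthesis (−0.08) and of acyl chain elongation (−0.04) had turned, and those of the other lists, in the same order, were 0.07, −0.14, 0.05, −0.09 and −0.08. The galactolipid branch thus had the lowest median of the 7 lists in both fits, with 7 of 8 genes lower in Angptl2-/- libraries. Its other members serve the supply and transport of substrate and product. Slc35a2, the UDP-galactose carrier of the Golgi, had 5.46, 5.16 and 5.78 FPKM in Angptl2-/- libraries, against 6.75, 6.50 and 6.27 FPKM in Angptl2+/+ libraries, without overlap (log2 fold change −0.25, SE 0.10, limma adjusted p = 0.303). Gltp, the glycolipid transfer protein, had 19.1, 17.2 and 20.5 FPKM in Angptl2-/- libraries, against 35.4, 24.9 and 19.9 FPKM in Angptl2+/+ libraries (log2 fold change −0.46, SE 0.21, adjusted p = 0.325, −0.23 without Angptl2+/+ replicate 1 and −0.31 after the GC correction). Papss1, which makes the sulfate donor, was the most abundant of them at 23.9 ± 0.893 FPKM in Angptl2-/- and 26.4 ± 2.27 FPKM in Angptl2+/+ libraries (SD, n = 3 each). For Slc35a2 the GC correction gave −0.09, and its genotypes then overlapped.

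**Figure D3:**
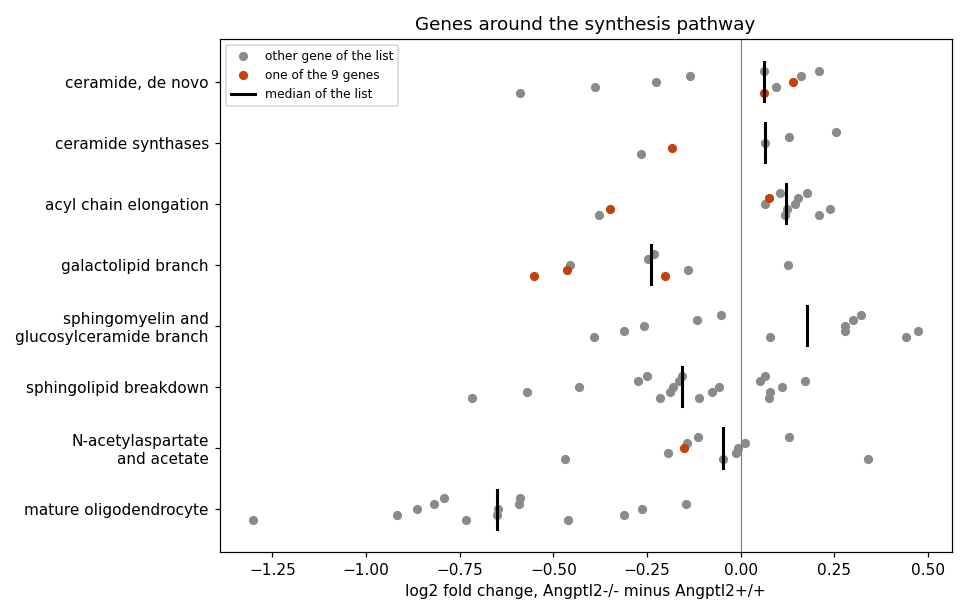
Log2 fold change (horizontal axis, Angptl2-/- minus Angptl2+/+) of the tested genes of the 7 pathway lists and of the mature oligodendrocyte list (rows). Each point is a gene, orange for the 9 enzymes, and the bars are list medians, which run from −0.65 for the mature oligodendrocyte list to 0.18 for the sphingomyelin and glucosylceramide branch.

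In de novo ceramide synthesis, Ormdl3, an inhibitor of serine palmitoyltransferase, had 18.6, 14.7 and 14.4 FPKM in Angptl2-/- libraries, against 23.8, 22.4 and 16.6 FPKM in Angptl2+/+ libraries (log2 fold change −0.39, SE 0.17, limma adjusted p = 0.316). Sptssb, a small subunit of that enzyme, had a log2 fold change of −0.59 (SE 0.40, adjusted p = 0.464), −0.24 without Angptl2+/+ replicate 1. The GC correction gave −0.16 for Ormdl3 and −0.90 for Sptssb. Cers1, the ceramide synthase of neurons, was at 15.8 ± 1.89 FPKM in Angptl2-/- and 18.9 ± 1.46 FPKM in Angptl2+/+ libraries, and Cers6 was at 8.42 ± 0.683 FPKM in Angptl2-/- and 7.12 ± 1.47 FPKM in Angptl2+/+ libraries (SD, n = 3 each). The log2 fold change of Cers1 was −0.27, and 0.15 after the GC correction. Tecr, the last reductase of the elongation cycle, had 99.4, 93.5 and 83.4 FPKM in Angptl2-/- libraries, against 127, 115 and 116 FPKM in Angptl2+/+ libraries, without overlap (log2 fold change −0.38, SE 0.11, adjusted p = 0.273, −0.13 after the GC correction). Hsd17b12, its first reductase, was at 33.1 ± 2.47 FPKM in Angptl2-/- and 29.2 ± 2.48 FPKM in Angptl2+/+ libraries (log2 fold change 0.18, and 0.03 after the GC correction).

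Competing uses of ceramide were read in the same way. Samd8, which makes ceramide phosphoethanolamine, had 20.03, 24.2 and 25.6 FPKM in Angptl2-/- libraries, against 13.6, 16.4 and 20.5 FPKM in Angptl2+/+ libraries (log2 fold change 0.47, SE 0.17, limma adjusted p = 0.278). B4galt6, a lactosylceramide synthase, had 44.1, 51.5 and 58.1 FPKM in Angptl2-/- libraries, against 39.3, 38.6 and 44.6 FPKM in Angptl2+/+ libraries (log2 fold change 0.32, SE 0.13, adjusted p = 0.292). In both genes the genotypes overlapped by a single library each way, and the GC correction gave 0.23 for Samd8 and 0.21 for B4galt6. St3gal5, the sialyltransferase that makes ganglioside GM3, was the most abundant of this list, at 56.7 ± 2.54 FPKM in Angptl2-/- and 59.6 ± 12.2 FPKM in Angptl2+/+ libraries. For N-acetylaspartate, Nat8l, its synthase in neurons, had 38.8, 44.3 and 47.5 FPKM in Angptl2-/- libraries, against 59.0, 51.1 and 72.2 FPKM in Angptl2+/+ libraries, without overlap (log2 fold change −0.47, SE 0.15, adjusted p = 0.274, −0.16 after the GC correction). Folh1, which cleaves its dipeptide with glutamate, had a log2 fold change of 0.34 (SE 0.19, adjusted p = 0.404), 0.06 after the GC correction and 0.50 without Angptl2+/+ replicate 1.

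Sphingolipid breakdown was the list with the most genes whose genotypes did not overlap: 9 of 19 had all Angptl2-/- libraries below all Angptl2+/+ libraries, beside 11.8% of all genes. After the GC correction the count was 4 of 19, beside 6.55% of all genes, and these 4 were among the 9. Sphk2, a sphingosine kinase, had 4.92, 4.29 and 3.92 FPKM in Angptl2-/- libraries, against 6.94, 7.25 and 5.50 FPKM in Angptl2+/+ libraries (log2 fold change −0.57, SE 0.15, limma adjusted p = 0.273). Smpd1, the acid sphingomyelinase, had 34.9, 34.4 and 33.2 FPKM in Angptl2-/- libraries, against 39.8, 39.1 and 40.3 FPKM in Angptl2+/+ libraries (log2 fold change −0.22, SE 0.08, adjusted p = 0.290). Psap, the precursor of the saposins and the most abundant gene of the list, had 528, 532 and 512 FPKM in Angptl2-/- libraries, against 547, 569 and 581 FPKM in Angptl2+/+ libraries. The GC correction gave log2 fold changes of −0.27 for Sphk2, −0.01 for Smpd1 and 0.06 for Psap, and only Sphk2 of these 3 was then free of overlap. Galc and Arsa, the hydrolases of galactosylceramide and of sulfatide, were added with their values known, as the counterparts of Ugt8a and Gal3st1. Galc had 1.23, 1.119 and 1.25 FPKM in Angptl2-/- libraries, against 1.41, 1.27 and 1.39 FPKM in Angptl2+/+ libraries (log2 fold change −0.16, SE 0.17, adjusted p = 0.641). Arsa had 6.87, 6.02 and 4.33 FPKM in Angptl2-/- libraries, against 8.22, 7.62 and 7.14 FPKM in Angptl2+/+ libraries (log2 fold change −0.43, SE 0.18, adjusted p = 0.297). The GC correction moved them in opposite directions, to −0.48 for the GC-poor Galc and to −0.20 for the GC-rich Arsa. Galc was then still free of overlap, and Arsa was not.

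The enzymes were then set against the transcripts of myelin proteins and other mature oligodendrocyte markers. All 14 genes of that list were lower in Angptl2-/- libraries, with a median log2 fold change of −0.65, and none passed the adjusted test (lowest limma adjusted p of 0.277, 4 of 14 lower at an unadjusted p under 0.05, beside 9.12% of all genes). The mean of the list, relative to the Angptl2+/+ mean, was −1.07, −0.67 and −0.21 in Angptl2-/- replicates 1, 2 and 3, against 0.76, −0.32 and −0.44 in Angptl2+/+ replicates 1, 2 and 3, on the log2 scale. For 2 of the 14, Mbp and Mag, all Angptl2-/- libraries lay below all Angptl2+/+ libraries, beside 11.8% of all genes. Without Angptl2+/+ replicate 1 the median log2 fold change of the list was −0.29 and 12 of the 14 were lower. After the GC correction the median was −0.58. Mbp, a structural protein of compact myelin, had 147, 162 and 181 FPKM in Angptl2-/- libraries, against 495, 257 and 205 FPKM in Angptl2+/+ libraries (log2 fold change −0.86, SE 0.30, adjusted p = 0.277). Mag, an adhesion protein of the myelin next to the axon, had 29.6, 31.9 and 37.5 FPKM in Angptl2-/- libraries, against 92.8, 54.5 and 38.6 FPKM in Angptl2+/+ libraries (log2 fold change −0.82, SE 0.29, adjusted p = 0.278). Without Angptl2+/+ replicate 1 the log2 fold changes were −0.49 for Mbp and −0.48 for Mag. After the GC correction that of Mag was −0.55 and its genotypes overlapped, whereas that of Mbp was −0.83 and its genotypes did not overlap. The count of the list was then again 2 of 14, with another marker in place of Mag, beside 6.55% of all genes. Both were candidate genes of the study from these libraries.

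Relative to this list, all 9 enzymes had a higher mean in Angptl2-/- libraries, by 0.10 (Fa2h) to 0.79 (Degs1) on the log2 scale. That by itself did not set them apart, since 95.5% of all genes tested were higher relative to the list, with a median of 0.65. For 5 of the 9, Ugt8a, Fa2h, Cers2, Elovl7 and Degs1, the 3 Angptl2-/- libraries lay wholly above the 3 Angptl2+/+ libraries, beside 19.8% of all genes. The count was also 5 without Angptl2+/+ replicate 1 (19.9% of all genes), and it was 3 after the GC correction (8.3% of all genes), which left Fa2h, Cers2 and Elovl7. With no correction, Ugt8a (0.45), Fa2h (0.10) and Cers2 (0.47) differed by less than the median of all genes, Elovl7 (0.72) and Degs1 (0.79) by more. A gene that varies with the list between libraries has little spread on this scale, so even a small difference can be free of overlap. The count therefore does not measure how far an enzyme differed. Ugt8a relative to the list was at 0.38, 0.58 and 0.62 in Angptl2-/- libraries, against −0.05, −0.0003 and 0.28 in Angptl2+/+ libraries. With all libraries and no correction Fa2h differed least, with −0.78, −0.71 and −0.78 in Angptl2-/- libraries, against −0.87, −0.90 and −0.80 in Angptl2+/+ libraries. After the GC correction its difference was 0.24, above those of Ugt8a (0.09) and Aspa (0.15), and without Angptl2+/+ replicate 1 that of Gal3st1 (0.08) was below that of Fa2h (0.09). Gal3st1, Elovl1, Aspa and Sptlc2 overlapped between genotypes on this scale.

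**Figure D4:**
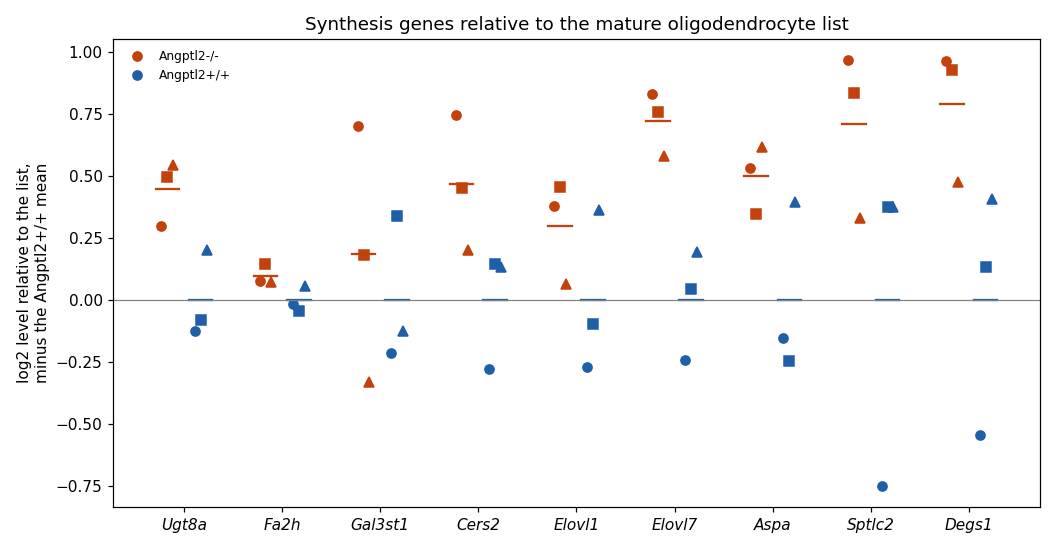
Log2 level of each enzyme relative to the mean of the mature oligodendrocyte list, minus its Angptl2+/+ mean (vertical axis), in Angptl2-/- libraries (orange, left) and Angptl2+/+ libraries (blue, right), with group means as bars and replicates 1, 2 and 3 as circle, square and triangle. All 9 Angptl2-/- means are above 0, and the points of the 2 genotypes are apart for 5 enzymes.

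Ratios between enzymes within a library do not depend on the library's scale. Of the 36 pairs, 6 had ratios without overlap between genotypes, beside 10.0% of the ratios of the 9 enzymes to all other tested genes. The ratio of Ugt8a to Fa2h, the galactose transferase to the hydroxylase, was 2.24, 2.45 and 2.65 in Angptl2-/- libraries, against 1.77, 1.87 and 2.12 in Angptl2+/+ libraries. That of Fa2h to Elovl7 was 1.87, 2.06 and 2.22 in Angptl2-/- libraries, against 3.70, 2.99 and 2.89 in Angptl2+/+ libraries. The ratio of the 2 elongases, Elovl1 to Elovl7, was 0.824, 0.913 and 0.787 in Angptl2-/- libraries, against 1.11, 1.03 and 1.28 in Angptl2+/+ libraries. The other 3 pairs were Fa2h to Degs1, Cers2 to Elovl7 and Elovl1 to Degs1. In all 6 pairs the gene with the higher GC content was the one with the relatively lower level in Angptl2-/- libraries. After the GC correction none of the 6 was free of overlap, and 2 other pairs were, Ugt8a to Cers2 and Ugt8a to Elovl7 (5.42% of the ratios to all other genes).

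The genes with the profile most like the oligodendrocyte-specific enzymes were sought among 7231 protein-coding genes of at least 5 FPKM, by the Pearson correlation over the 6 libraries with the mean log2 level of Ugt8a, Fa2h, Gal3st1 and Aspa. That mean, relative to Angptl2+/+, was −0.67, −0.37 and 0.02 in Angptl2-/- libraries, against 0.63, −0.33 and −0.31 in Angptl2+/+ libraries. Gal3st1 departed from it, with 9.33, 8.62 and 8.28 FPKM in Angptl2-/- replicates 1, 2 and 3 and its lowest value in Angptl2+/+ replicate 3. The 5 highest were Lpar1, a lysophosphatidic acid receptor (r = 0.997), Cdc42ep2, an effector of the GTPase CDC42 (0.986), Slc35g2 (0.981), Mobp, a myelin protein (0.981), and Tmem88b (0.976). Lpar1 had 5.01, 6.12 and 7.71 FPKM in Angptl2-/- libraries, against 12.3, 5.97 and 6.33 FPKM in Angptl2+/+ libraries, with Angptl2+/+ replicate 1 at the top as in 7 of the enzymes. Mobp had 44.6, 61.5 and 81.1 FPKM in Angptl2-/- libraries, against 162, 73.2 and 72.3 FPKM in Angptl2+/+ libraries. In all, 14 genes (0.194%) had an r over 0.95, and 4 of the 11 mature oligodendrocyte genes compared were among them. These correlations are a description over the same 6 libraries, whose depth and tissue markers the genes share.

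Other cell types were checked beside the enzymes. Summed oligodendrocyte precursor markers (8 genes) were 144 to 166 FPKM in Angptl2-/- and 134 to 177 FPKM in Angptl2+/+ libraries, and their median log2 fold change was 0.26 (0.13 after the GC correction). Summed astrocyte markers (8 genes) were 576 to 606 FPKM in Angptl2-/- and 591 to 727 FPKM in Angptl2+/+ libraries, and summed neuron markers (9 genes) were 1417 to 1553 FPKM in Angptl2-/- and 1332 to 1690 FPKM in Angptl2+/+ libraries. All 3 sums overlapped between genotypes, whereas those of the endothelium (63.4 to 73.5 FPKM in Angptl2-/-, against 83.0 to 87.2 FPKM in Angptl2+/+ libraries) and of red blood cells (125 to 274 FPKM in Angptl2-/-, against 302 to 498 FPKM in Angptl2+/+ libraries) did not. Overlapping sums hid single genes without overlap: 1 lower and 2 higher for precursors, 2 and 1 for astrocytes, 1 and 1 for neurons. The shares of all genes were 11.8% lower and 10.7% higher. After the GC correction these counts were 0 and 2, 2 and 0, and 0 and 0, beside 974 lower and 972 higher of all 14862 genes. The endothelium sum did not stand for all its 7 genes: 5 were lower and 2 higher, with a median log2 fold change of −0.05. Of the 7, 2 were lower without overlap, beside 11.8% of all genes, and the same 2 were so after the GC correction, beside 6.55%. For the 5 red blood cell genes the median was −1.08. Microglia markers summed to 109 to 127 FPKM in Angptl2-/- and 121 to 137 FPKM in Angptl2+/+ libraries. Of 5 Schwann cell genes, which would point to nerve tissue outside the brain, 3 were under the minimum level for testing. The part of these cell types in the levels of the enzymes was not tested.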

How the data were processed

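Brain RNA from 3 Angptl2-/- and 3 Angptl2+/+ samples was sequenced with paired-end reads on an Illumina HiSeq instrument. The authors deposited FPKM values (fragments per kilobase of gene, scaled to library depth), 1 per gene and library. The submitters' processing notes name Bowtie 0.12.2 and mm8, and how reads were counted, on which annotation and with which strand setting, is not given in the sources used here. GENCODE M21 (GRCm38) holds 54495 of the 54532 identifiers, and its exon lengths turned 96.6 to 96.8% of values above 0 into whole fragments within 0.05, so symbols, lengths and coordinates are from it. Those fragments set the counting error only, and 24705 identifiers were at 0 in every library.

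Genotypes were compared with limma 3.58.1 in R 4.3.3 (empirical Bayes with intensity trend, two-sided) on log2(FPKM + 0.1) for genes with a mean of at least 0.5 FPKM. A fold change on this scale understates that of low genes. Adjustment was by Benjamini-Hochberg over 14862 genes, and figures were made with Python 3.11.15 and matplotlib 3.10.9. The code was tested on simulated data. Exact permutation tests of 3 against 3 cannot go below p = 0.1. The same-numbered samples were not treated as pairs. The alternatives were other pseudocounts, filters, scalings, moderation and voom, the replicate block, loess corrections (span 0.3) for GC content and gene length, and leaving out each library.

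The genes and gene lists were chosen with earlier results of these data known. Named genes were the 9 enzymes, Angptl2, per pathway list 2 other genes by smallest p and 1 by abundance, the same for the mature oligodendrocyte list, and the 5 genes most like the mean of 4 of the enzymes. Of these genes, 1 is not reported here. The authors' enrichment analysis and quantitative PCR were not analysed here.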

Additional observations from a re-analysis of the deposited data

How the results depend on the processing

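No adjusted p of the 9 enzymes passed 0.05 in any of the 19 alternative fits (lowest 0.207, highest 0.987), and the number lower at that threshold was 0 throughout. Fa2h, Gal3st1, Elovl1 and Degs1 kept their sign in all 19 fits. The median log2 fold change of the 9 ran from −0.20 to −0.12 under the alternatives that keep all libraries. Leaving out each library gave −0.43 to 0.07 for the median, 3 to 7 enzymes with a negative log2 fold change (3 without Angptl2+/+ replicate 1, 4 without Angptl2-/- replicate 1), 0 to 1 lower at an unadjusted p under 0.05 (Gal3st1, without Angptl2+/+ replicate 3) and 0 to 1 without overlap between genotypes. Among the fits that keep all libraries, signs turned in 3. After the GC correction, with or without the replicate block, Elovl7 was at −0.15 and Sptlc2 at −0.081, and after the length correction Sptlc2 was at −0.011. Leaving out each library gave −0.47 to 0.12 for Ugt8a, −0.34 to 0.06 for Cers2, −0.43 to 0.15 for Aspa and −0.07 to 0.34 for Elovl7, with the sign turned for Ugt8a (0.12), Cers2 (0.059) and Aspa (0.15) without Angptl2+/+ replicate 1, for Ugt8a (0.08) and Aspa (0.04) without Angptl2-/- replicate 1, and for Elovl7 without Angptl2+/+ replicate 2 (−0.06), Angptl2+/+ replicate 3 (−0.05) or Angptl2-/- replicate 3 (−0.073). The cause was not tested. Deviations of same-numbered samples correlated at 0.04, −0.07 and 0.16, within the range of differently numbered samples (−0.26 to 0.26). With so few libraries per genotype, these values cannot decide whether the numbers pair the samples. With the replicate block the median of the 9 was −0.18 and Gal3st1 had an unadjusted p of 0.0538 (adjusted p = 0.285). Over all genes the replicate block moved the count past the adjusted threshold to 1, against 0 without it, and leaving out Angptl2+/+ replicate 1 also gave 1. Rescaling without mitochondrial and haemoglobin genes moved the counts of all genes at an unadjusted p under 0.05 to 857 lower and 1728 higher, against 1355 and 1054. The GC correction gave 597 lower and 438 higher, with the replicate block 723 and 493, and leaving out each library gave 790 to 1656 lower and 465 to 1373 higher. Aspa, with 87 to 211 fragments, has the least depth of the 9.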
